A study of Mus musculus with 6 samples.

Results

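The urokinase system and the tissue factor pathway of blood clotting were examined in heme-treated macrophages through 9 genes: Plau, Plaur, Serpinb2, F3, F7, F10, Thbd, Procr and Thbs1. These 9 genes were taken by symbol from the 25700 gene identifiers in the count files, and all 9 were found and could be tested. The macrophages were bone marrow-derived macrophages (BMDMs), grown with M-CSF (100 ng/ml) from marrow of C57BL/6J mice aged 8 to 10 weeks. On day 3, cultures were given heme bound to albumin at 300 μM, or albumin alone as the control, and RNA was taken on day 7. Each of the 3 control and 3 heme libraries came from the macrophages of 1 mouse of the same strain. The libraries held 27201038 to 32994595 read counts. All 8 macrophage markers examined passed the filter on low counts, but 6 of them fell with heme and 1, Itgam, rose (log2 fold change 0.42). By the test described below, 87.5% of these markers were thus called, against 62.5% of all tested genes, of which 30.8% were lower. Itgam shares 3450 exon bases with another annotated gene on the same strand, Gm49368, and their counts may not be separable. Fcgr1, Mertk and Cd14 had log2 fold changes of -2.01, -1.91 and -1.56. The summed level of the 8 markers, 31780 to 37570 CPM (TMM-normalized read counts scaled to library size) in controls and 36240 to 39510 CPM with heme, came mostly from Lyz2, which did not pass the test (28010 ± 2591 and 32550 ± 1580 CPM; SD, n = 3).

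Urokinase (uPA, from Plau) cuts plasminogen into plasmin, the protease that dissolves fibrin and loosens extracellular matrix, and it does so most efficiently when bound to its receptor uPAR (Plaur) on the cell surface. Serpinb2 encodes PAI-2, an inhibitor of urokinase that macrophages are known to make. Tissue factor (F3) is the membrane protein that starts clotting: it binds factor VIIa (F7), and the pair activates factor X (F10), which then turns prothrombin into thrombin. Thrombomodulin (Thbd) turns thrombin toward activating protein C, and the endothelial protein C receptor EPCR (Procr) presents protein C for this step. Thrombospondin-1 (Thbs1) is a secreted matrix protein that platelets and macrophages release.

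The RefSeq promoter set of GRCm38.p6 held entries for 6 of the 9 genes, Plaur, Serpinb2, F3, F7, F10 and Procr, and none for Plau, Thbd or Thbs1. The 6 with entries are the 6 that rose with heme (below), so that genes without a call could not be compared. The 250 bases before each start were searched on both strands for TGANTCA (the AP-1 site), TGACNNNGC (the core of the antioxidant response element, ARE, which NRF2 binds), ACGTG (the core of the hypoxia response element), GGGNNTTTC (an NF-κB site) and TATAAA (the TATA box). The AP-1 and ARE letters can overlap. The windows of the 4 genes that held an AP-1 match are shown because they share these letters, with every match in capitals. They lie on the plus strand at chr2:155750967-155751216 (Procr), chr3:121723287-121723536 (F3), chr7:24462233-24462482 (Plaur) and chr1:107511173-107511422 (Serpinb2).
Procr: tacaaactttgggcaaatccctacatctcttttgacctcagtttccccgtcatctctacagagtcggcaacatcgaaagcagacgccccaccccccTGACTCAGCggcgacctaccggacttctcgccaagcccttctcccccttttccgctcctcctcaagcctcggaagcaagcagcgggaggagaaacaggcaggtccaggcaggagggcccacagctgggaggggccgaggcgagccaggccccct
F3: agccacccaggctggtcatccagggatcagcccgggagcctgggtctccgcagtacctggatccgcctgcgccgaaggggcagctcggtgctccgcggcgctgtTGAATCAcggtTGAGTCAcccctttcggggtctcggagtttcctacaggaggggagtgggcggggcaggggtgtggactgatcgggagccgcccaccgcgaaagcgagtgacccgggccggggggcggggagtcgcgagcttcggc
Plaur: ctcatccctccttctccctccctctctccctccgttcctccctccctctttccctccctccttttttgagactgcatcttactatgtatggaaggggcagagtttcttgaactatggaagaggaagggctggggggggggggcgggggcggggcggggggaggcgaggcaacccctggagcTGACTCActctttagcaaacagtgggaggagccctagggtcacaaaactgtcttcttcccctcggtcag
Serpinb2: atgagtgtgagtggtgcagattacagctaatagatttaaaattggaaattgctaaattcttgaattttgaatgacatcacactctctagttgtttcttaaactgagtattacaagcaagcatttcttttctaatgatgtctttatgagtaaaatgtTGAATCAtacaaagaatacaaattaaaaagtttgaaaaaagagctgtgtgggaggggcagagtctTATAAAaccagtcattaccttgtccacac

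The Procr window held 1 stretch, TGACTCAGC, that matched both the AP-1 and the ARE letters. It ran from position -154 to -146, counted back from the RefSeq start, as are all positions here. The Procr window runs to 155751216, past the gene start of 155751117 given below from GENCODE. Its last part thus lies within the gene as annotated there. The F3 window held a pair of AP-1 matches 4 bases apart, TGAATCA and TGAGTCA. In the Plaur window the AP-1 match, TGACTCA, lay at -69 to -63. In the Serpinb2 window TGAATCA lay at -94 to -88, and TATAAA at -29 to -24. A further Serpinb2 entry, whose window overlaps the first, held the same matches. The F10 window held a hypoxia response core on the minus strand, and the F7 window held none of the 5 motifs. No NF-κB match was found in any of these windows. Of all 32851 promoter windows in the set, 6.75% held an AP-1 match, 10.2% an ARE core, 16.6% a hypoxia response core, 3.72% an NF-κB match and 12.4% a TATA box. These matches describe letters only; binding was not measured here.

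Heme-treated BMDMs carried more mRNA of 6 of the 9 genes: Procr, Plaur, Serpinb2, F3, F7 and F10. Plau, Thbd and Thbs1 did not pass the test, and none of the 9 fell. Genes were called at a Benjamini-Hochberg adjusted p under 0.05 in edgeR's quasi-likelihood test across all 12433 genes that passed a filter on low counts. Of these, 31.7% were higher with heme, 30.8% were lower and 62.5% were called in either direction, so that a call on its own is common in these data. The median log2 fold change of the 9 genes was 2.74, and that of all tested genes was 0.0041. Serpinb2 and F3 passed the filter through their heme libraries alone, so that a difference was a condition of their being tested; of the 7 genes that passed through both groups, 4 rose. For the 6 genes that rose, each heme library was above each control library; among all tested genes, 68.8% had groups that did not overlap. For each of them the exact two-sided permutation test gave p = 0.1, the smallest that 3 libraries against 3 allow. The sources used here do not say whether a mouse gave both a control and a heme library, and the test treated the libraries as independent. In whole cultures, more cells expressing a gene and more RNA per cell cannot be told apart.

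**Figure D1:**
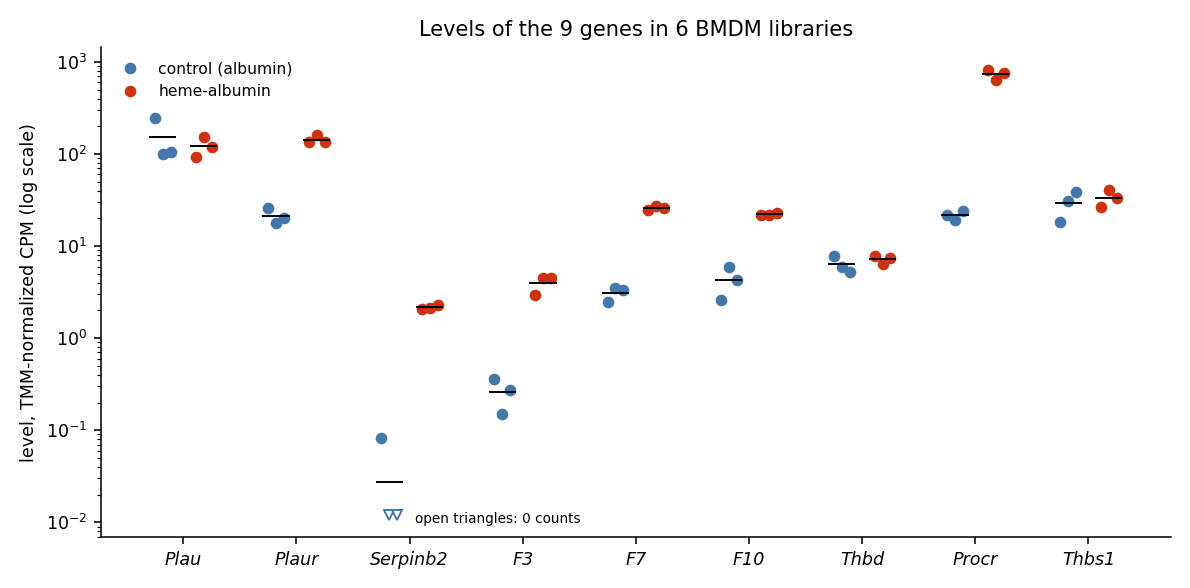
TMM-normalized CPM (log scale) of the 9 genes in 3 control (blue) and 3 heme-albumin (red) BMDM libraries; points are libraries, black lines are group means and open triangles are libraries with 0 counts. The groups stand apart for Plaur, Serpinb2, F3, F7, F10 and Procr and overlap for Plau, Thbd and Thbs1.

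Of the urokinase system, the receptor and the inhibitor rose while urokinase itself did not pass the test. Plaur, on chromosome 7 from 24462484 to 24475968, stood at 26.2, 17.9 and 20.3 CPM in control replicates 1, 2 and 3 and at 134.7, 161.7 and 133.9 CPM in the heme replicates. Every heme library was thus above every control library. The log2 fold change was 2.74 (standard error 0.14, edgeR adjusted p = 2.27e-07), a 6.68-fold rise with a 95% interval of 5.38 to 8.29.

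Plau, on chromosome 14 from 20836660 to 20843385, stood at 248.4, 99.96 and 105.8 CPM in the control replicates and at 93.9, 151.7 and 118.6 CPM in the heme replicates. The groups overlapped, and control replicate 1 was the highest library. The log2 fold change was -0.32 (standard error 0.32, edgeR adjusted p = 0.409), with a 95% interval of the fold from 0.485 to 1.32. Without control replicate 1, the sign turned, and the gene again did not pass the test (log2 fold change 0.23, edgeR adjusted p = 0.209). The data thus do not settle a direction for Plau, and the interval leaves room for a change in either direction.

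Serpinb2, on chromosome 1 from 107511423 to 107535478, was nearly absent from controls, with 3, 0 and 0 counts. The heme libraries held 62, 54 and 62 counts, or 2.09, 2.13 and 2.27 CPM. From 3 against 178 counts the ratio was 73.9, with an exact 95% interval of 24.9 to 361.5 that covers counting error only (edgeR adjusted p = 6.19e-06). All control counts came from replicate 1. Set against control replicates 2 and 3 alone, which held none, a floor of 3 counts over both gave a level at least 47.8-fold higher with heme; this leaves out replicate 1 and is no lower limit for the rise over all controls, whose interval starts at 24.9. Serpinb10, a neighboring serpin gene on the same strand, shares 291 exon bases with Serpinb2, stood at 0.105 ± 0.0824 CPM in controls and at 8.47 ± 0.540 CPM with heme (n = 3, SD), and was also called higher. The counts of these 2 genes may not be separable.

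Tissue factor and the clotting proteases it works with all rose. F3, on chromosome 3 from 121723537 to 121735048, had 13, 5 and 9 counts in the control replicates and 88, 115 and 123 counts in the heme replicates. In CPM these were 0.359, 0.149 and 0.275 against 2.96, 4.54 and 4.51. Heme replicate 1 was the lowest of its group and still far above each control. F3 had a log2 fold change of 3.90 (standard error 0.31, edgeR adjusted p = 4.32e-06), a 14.9-fold rise with a 95% interval of 9.23 to 24.2. Even so, F3 remained a low-abundance mRNA, with rank 9168 of 12419 tested genes by level per kilobase of exon in the heme group.

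F7 and F10 lie side by side on chromosome 8 on the plus strand, with 1498 bases between the end of F7 (13026034 to 13035809) and the start of F10 (13037308 to 13056676). F7 stood at 2.49, 3.49 and 3.36 CPM in controls and at 24.9, 27.5 and 25.8 CPM with heme. F10 stood at 2.57, 6.00 and 4.31 CPM in controls and at 21.8, 21.9 and 22.8 CPM with heme. The heme libraries agreed closely with each other, whereas F10 varied between controls, with replicate 1 the lowest for both genes. The log2 fold change was 3.07 for F7 (standard error 0.13, edgeR adjusted p = 7.83e-08), an 8.38-fold rise. It was 2.37 for F10 (standard error 0.23, edgeR adjusted p = 1.54e-05), a 5.18-fold rise.

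Procr rose strongly, and its partner Thbd in the protein C pathway did not pass the test. Procr, on chromosome 2 from 155751117 to 155755471, stood at 21.7, 19.3 and 23.9 CPM in the control replicates. With heme it stood at 825.6, 634.3 and 767.0 CPM. Heme replicate 2 was the lowest of the heme libraries and still far above each control. The log2 fold change was 5.10 (standard error 0.13, edgeR adjusted p = 4.1e-09), a 34.3-fold rise with a 95% interval of 28.0 to 42.0. Among the 12433 tested genes, this was rank 116 by the size of the rise. By level per kilobase of exon, Procr went from rank 3719 of 12419 in controls to rank 93 with heme.

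Thbd, a gene with 1 exon on the minus strand of chromosome 2 from 148404466 to 148408188, stood at 7.90, 5.88 and 5.20 CPM in controls and at 7.75, 6.40 and 7.52 CPM with heme. The groups overlapped, with control replicate 1 the highest library of all 6. Thbd had a log2 fold change of 0.19 (standard error 0.17, edgeR adjusted p = 0.343), and the 95% interval of the fold was 0.880 to 1.48. Without control replicate 1, Thbd passed the test as higher with heme (log2 fold change 0.38, edgeR adjusted p = 0.0316), so that this 1 library decides the call. Thbs1, on chromosome 2 from 118111876 to 118127133, stood at 18.2, 30.7 and 38.5 CPM in controls and at 26.4, 41.0 and 33.4 CPM with heme. Here too the groups overlapped, and control replicate 1 was the lowest library. Thbs1 had a log2 fold change of 0.20 (standard error 0.24, edgeR adjusted p = 0.487; 95% interval of the fold 0.788 to 1.68), and -0.05 without control replicate 1. Scaling by library size alone shifted the median over all genes by -0.22, and under it the log2 fold changes of Thbd and Thbs1 were -0.03 and -0.01, while each of the 6 genes that rose was still called higher.

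**Figure D2:**
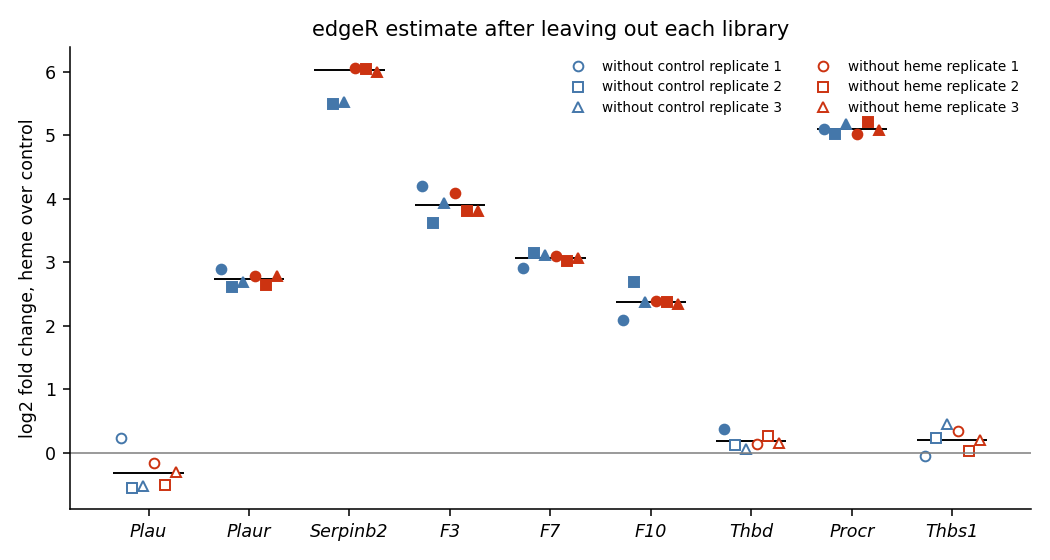
edgeR's log2 fold change (heme over control) for the 9 genes after leaving out each library in turn; black lines are the estimates from all 6 libraries, and filled symbols have an adjusted p under 0.05. The 6 genes that rose stay between 2.10 and 6.05, Plau and Thbs1 cross 0 without control replicate 1, and no value is drawn for Serpinb2 without that library, which held all its control counts.

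Levels of different genes can be set side by side only per length, here as CPM per kilobase of annotated exon. In controls, Plau led the 9 genes at 64.0 ± 35.5 CPM per kilobase (SD, n = 3). Procr (10.7 ± 1.15) and Plaur (8.20 ± 1.62) came next and did not differ beyond the spread of their libraries. Thbs1 followed at 4.80 ± 1.69. Thbd (1.70 ± 0.378), F7 (1.68 ± 0.294) and F10 (1.57 ± 0.628) overlapped each other, and F3 (0.103 ± 0.0418) and Serpinb2 (0.0118 ± 0.0204) were last. With heme the order changed, and Procr led at 366 ± 48.3 CPM per kilobase, apart from all others. Plaur (54.8 ± 6.04) and Plau (51.3 ± 12.3) overlapped, so that the receptor reached the level of the protease. F7 (14.0 ± 0.701) and F10 (8.12 ± 0.197) stood apart from each other and above Thbs1 (5.53 ± 1.20). Thbd (1.94 ± 0.194) and F3 (1.59 ± 0.357) overlapped, and Serpinb2 was last (0.922 ± 0.0414).

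**Figure D3:**
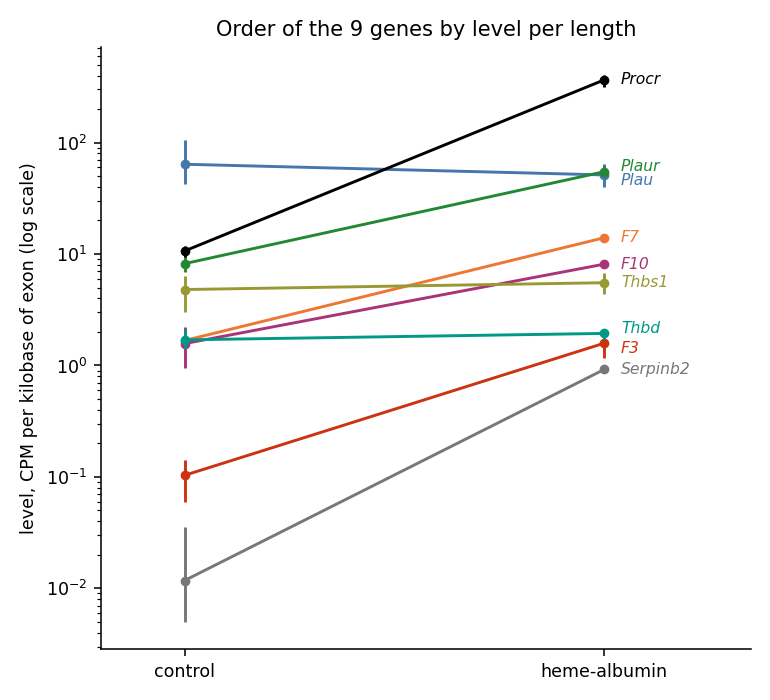
Level of each of the 9 genes as CPM per kilobase of exon (log scale) in control and heme-albumin BMDMs; points are means of 3 libraries and vertical bars run from the lowest to the highest library, the Serpinb2 control bar reaching 0, which a log axis cannot show. Procr rises from 10.7 to 366 and passes Plau, and F7 and F10 pass Thbs1.

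Ratios taken within a library do not depend on how libraries are scaled. They were formed from counts per kilobase of exon for pairings of proteins that act together or against each other, and 5 of the 6 ratios computed are given. Plau over Plaur was 10.5, 6.16 and 5.77 in the control replicates and 0.770, 1.04 and 0.980 with heme. Urokinase mRNA thus outnumbered that of its receptor in each control library and was about equal to it in the heme libraries, a 7.81-fold lower ratio.

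F3 over Tfpi, the gene of the tissue factor pathway inhibitor, was 0.0607, 0.0253 and 0.0488 in controls and 0.450, 0.614 and 0.594 with heme, a 12.98-fold higher ratio. Tissue factor mRNA stayed below that of its inhibitor in all 6 libraries. Thbd over F3 was 14.9, 26.7 and 12.8 in controls and 1.77, 0.956 and 1.13 with heme. Thbd over Procr fell from 0.161 ± 0.0405 to 0.00532 ± 0.000194 (SD, n = 3). F10 over F7 was 0.703, 1.17 and 0.873 in controls and 0.596, 0.544 and 0.601 with heme, the smallest of these shifts (1.54-fold lower). For these 5 ratios the groups did not overlap (exact two-sided permutation test, p = 0.1 each and 0.1 after adjustment over the 6 computed, the smallest that this design allows). F3, used in F3 over Tfpi and in Thbd over F3, passed the filter through its heme libraries alone. Its control libraries held 13, 5 and 9 counts. These are ratios of mRNA, and protein or enzyme activity was not measured.

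**Figure D4:**
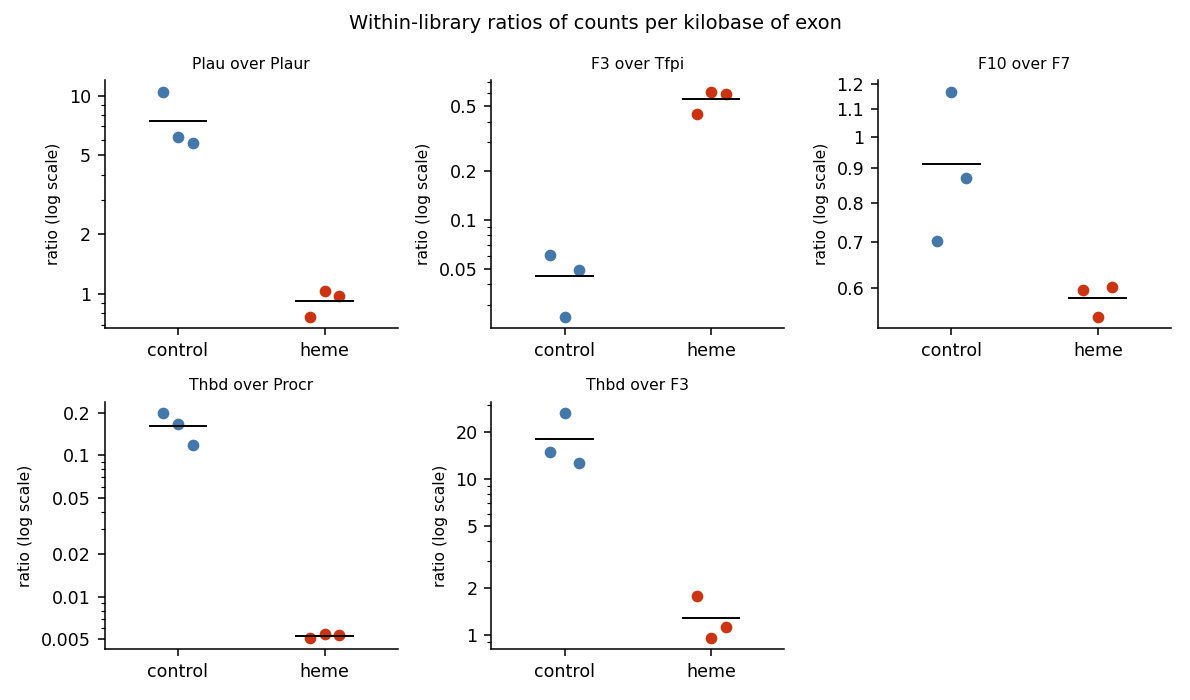
Within-library ratios of counts per kilobase of exon for 5 pairings, in 3 control (blue) and 3 heme (red) libraries, each panel with its own log axis; lines are group means. Plau over Plaur goes from 7.48 to 0.929 and F3 over Tfpi from 0.0449 to 0.552.

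Partner genes of these pathways were taken from 5 lists with 63 genes in all. Of these, 14 had no count in any library and 9 more did not pass the filter. Of the 40 tested, 26 were higher with heme, 5 were lower and 9 did not pass the test, against 31.7% and 30.8% of all tested genes. Their median log2 fold change was 0.51. Of the 26, 6 passed the filter through the heme libraries alone. Scaled by library size alone, 20 were higher and 8 lower. The genes of the main circulating substrates were among those with no count: Plg (plasminogen), F2 (prothrombin), Fga, Fgb and Fgg (fibrinogen chains) and Proc (protein C). A count of 0 allows a level of up to 0.119 CPM in the shallowest library, for counting error only.

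Of 17 genes of plasminogen activation and its control, 10 were tested, 7 rose and 1 fell (80% called, against 62.5% of all tested genes). Of the 7, 2 passed the filter through the heme libraries alone, Serpine2 among them, so that a rise was a condition of their being tested; of the 8 that passed through both groups, 5 rose. Serpini1, the gene of neuroserpin, an inhibitor of plasminogen activators, increased from 0.724 CPM to 10.1 CPM, a log2 fold change of 3.79 (edgeR adjusted p = 1.33e-06). Serpine2, the gene of the inhibitor protease nexin-1, had a log2 fold change of 3.09, and St14, the gene of the membrane protease matriptase, one of 1.95. Hpn, the gene of the membrane protease hepsin, fell by 0.59 on the log2 scale (edgeR adjusted p = 0.0213), and did not pass after control replicate 2 or heme replicates 1 or 3 had been left out. Plat, the gene of the tissue-type activator, did not pass the filter, at 0.0376 ± 0.0420 CPM in controls and 0.0395 ± 0.0684 CPM with heme (SD, n = 3); it lies outside the rule for named genes and was chosen after its values were seen.

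Of 15 clotting factor and fibrin genes, 6 were tested, 3 rose and none fell (50% called, against 62.5% of all tested genes). F5, the gene of factor V, the cofactor of factor Xa, increased from 3.14 ± 0.670 CPM to 6.47 ± 0.681 CPM (n = 3, SD), a log2 fold change of 1.05 (edgeR adjusted p = 0.000607). F9 (factor IX) had a log2 fold change of 0.63 (edgeR adjusted p = 0.0389), which did not pass in DESeq2 (adjusted p = 0.106), when scaled by library size alone (edgeR adjusted p = 0.144) or with no filter (edgeR adjusted p = 0.0646). Leaving out replicate 1 or 3 of either group also ended the call for F9. Tgm2, a transglutaminase gene, had one of 0.47 (edgeR adjusted p = 0.00925), which did not pass when scaled by library size alone (edgeR adjusted p = 0.127); it shares 370 exon bases with Rprd1b on the other strand.

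Of 9 anticoagulant genes, 6 were tested, 3 rose and 1 fell (66.7% called, near the 62.5% of all tested genes). Tfpi2, a relative of Tfpi, passed the filter through the heme libraries alone, and of the other 5 genes 2 rose. Tfpi2 increased from 0.130 ± 0.0799 CPM to 0.701 ± 0.148 CPM (n = 3, SD), a log2 fold change of 2.41 (edgeR adjusted p = 0.00097). The log2 fold changes of Tfpi itself and of Anxa5, which encodes a phosphatidylserine-binding protein, were 0.31 and 0.24, and neither passed when scaled by library size alone (edgeR adjusted p = 0.443 and 0.808). Tfpi also did not pass without control replicate 3 (adjusted p = 0.051) or heme replicate 3 (adjusted p = 0.0666). Pros1, the gene of protein S, the cofactor of activated protein C, fell from 79.6 ± 4.29 CPM to 45.5 ± 4.22 CPM (n = 3, SD), a log2 fold change of -0.81 (edgeR adjusted p = 2.1e-05). Procr and Pros1, both of the protein C pathway, thus moved in opposite directions.

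Of 12 protease-activated and thrombospondin receptor genes and relatives, 8 were tested, 6 rose and 1 fell (87.5% called, against 62.5% of all tested genes). F2rl2, F2rl3 and Thbs3 passed the filter through the heme libraries alone, and of the other 5 genes 3 rose. The thrombin receptor family genes F2rl2 and F2rl3 had log2 fold changes of 4.04 and 2.32 and were rare in both groups, with 1.68 ± 0.320 and 1.71 ± 0.297 CPM with heme (SD, n = 3); F2rl2 lies within Iqgap2 on the other strand. F2rl2 rested on 3, 6 and 1 counts in the control replicates, and its log2 fold change was 4.74 without control replicate 2. Cd36, a scavenger receptor gene whose product binds thrombospondin-1, increased from 2756 ± 100.2 CPM to 8460 ± 412 CPM (n = 3, SD), a log2 fold change of 1.62 (edgeR adjusted p = 2.93e-07). Thbs3, another thrombospondin gene, had a log2 fold change of 1.93; it shares 318 exon bases with Mtx1 on the other strand, which has more counts. Cd47, the gene of another thrombospondin-1 receptor, fell by 0.31 on the log2 scale (edgeR adjusted p = 0.0105), and did not pass the test without heme replicate 1 (edgeR adjusted p = 0.0503).

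Of 10 genes of the vitamin K cycle, of clotting factor export and of phosphatidylserine exposure, all were tested, 7 rose and 2 fell. The share called was 90%, against 62.5% of all tested genes. Factors VII and X need vitamin K-dependent carboxylation, and Ggcx and Vkorc1, the genes of the carboxylase and of the epoxide reductase that recycles the vitamin, had log2 fold changes of -0.50 and -0.28 (edgeR adjusted p = 0.00519 and 0.03). The Vkorc1 call was lost without control replicate 2 or 3 or heme replicate 1 or 2, and Vkorc1 shares 401 exon bases with another annotated gene. The quinone reductase gene Nqo1 had the largest rise of this list (4.77). Lman1, the gene of the cargo receptor for factors V and VIII, had one of 1.04, the scramblase gene Xkr8 of 0.73 and P4hb, which encodes protein disulfide isomerase, of 0.58.

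**Figure D5:**
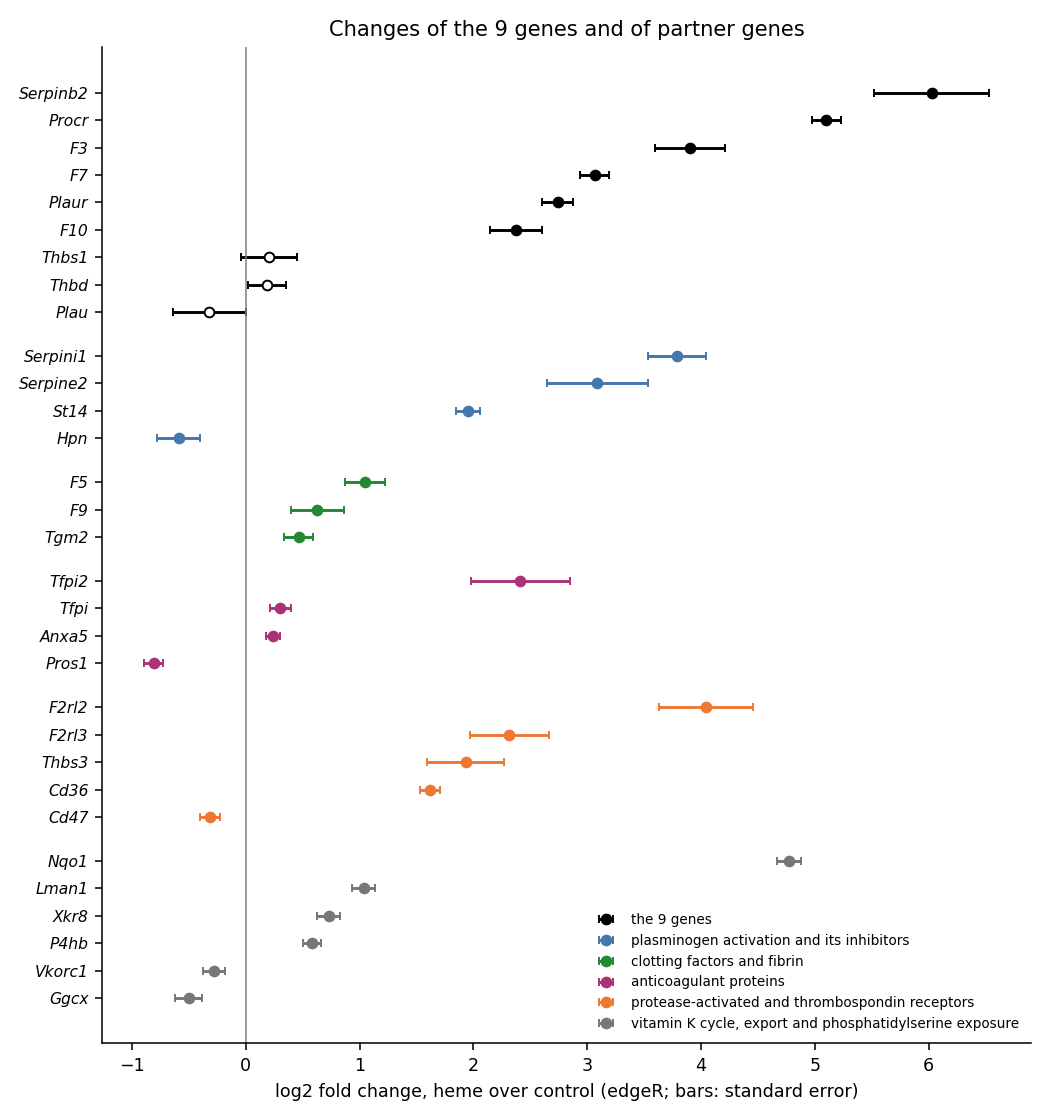
edgeR's log2 fold change (heme over control) with its standard error for the 9 genes and for the partner genes named in the text, by list; open points did not pass the test. Among the partners shown, Nqo1 (4.77) rises most and Pros1 (-0.81) falls most.

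Procr, Thbd and F3 are best known from endothelial and perivascular cells, so markers of other cells were read in the same libraries. The 8 endothelial markers summed to 4.60 to 6.24 CPM in controls and 4.42 to 5.28 CPM with heme. Of these, 5 were tested, 2 rose and 1 fell (60% called, near the 62.5% of all tested genes). Pecam1 and Tie1 rose (log2 fold changes 1.79 and 1.58, edgeR adjusted p = 0.000481 and 0.00412). Both passed the filter through their heme libraries alone, with 8, 12 and 13 counts (Pecam1) and 13, 5 and 11 counts (Tie1) in the control replicates. Kdr fell (log2 fold change -1.10, edgeR adjusted p = 0.00249). Emcn had no count in any library, and the defining marker Cdh5 stood at 0.438 and 0.498 CPM. Stromal markers (7 genes) summed to 0.249 to 0.398 and 1.03 to 1.38 CPM, with Dcn and Lum at 0 counts. Pdgfrb, a marker of perivascular cells and the only stromal marker tested, stood at 0.287 ± 0.103 CPM in controls and 1.05 ± 0.259 CPM with heme (SD, n = 3). It was called higher (log2 fold change 1.87, edgeR adjusted p = 0.000941), having passed the filter through the heme libraries alone, with 7, 9 and 13 counts in the control replicates. Pdgfra had 0 counts in each control library and 5, 1 and 2 counts with heme. Megakaryocyte and platelet markers (8 genes) summed to 4.06 to 5.37 and 8.25 to 9.13 CPM. Of these, 5 were tested, 2 rose and 1 fell (60% called, near the 62.5% of all tested genes). Ppbp (0.107 CPM in controls, 3.26 CPM with heme) and Itga2b rose and passed the filter through the heme libraries alone. Gp1bb fell and passed it through the control libraries alone. Mast cell and basophil markers (6 genes) summed to 0.0895 to 0.221 CPM in controls and 0.808 to 1.80 CPM with heme. Mcpt8, the only one of these tested, had 0 counts in each control library and 18, 12 and 18 counts with heme. It was called higher (edgeR adjusted p = 0.000139), having passed the filter through the heme libraries alone. Neutrophil markers (8 genes) summed to 6.77 to 10.7 CPM in controls and 89.5 to 131.8 CPM with heme. Of these, 6 were tested and all 6 rose (100% called, against 62.5% of all tested genes). Mpo rose from 0.0102 to 22.3 CPM and Elane from 0 to 3.87 CPM. Both passed the filter through the heme libraries alone. The part of the markers of any of these other cells in the results for the 9 genes was not tested.

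For Plau, Plaur and F3, the 3 tested genes with the nearest pattern over the 6 libraries were found by the root mean square difference of log2 CPM (with a prior count of 2), each gene centered on its own mean. Nearest to Plau were Ccne2, Rrm2 and Chek1 (differences of 0.0706, 0.158 and 0.173), none of which passed the test (log2 fold changes -0.30, -0.20 and -0.54). Nearest to Plaur were Tubb4a, Flrt2 and Prkaa2 (0.0869, 0.0987 and 0.109), with log2 fold changes of 2.80, 2.69 and 2.84. Nearest to F3 were Nrg1, Cd276 and Cth (0.118, 0.166 and 0.210). Of these, Cd276 rose from 12.2 to 154 CPM, and Nrg1 and Cth stood at 0.0286 CPM in controls and at 1.09 and 1.17 CPM with heme. The fitted log2 fold changes of Nrg1 (5.03) and Cth (5.13) were larger than that of F3 (3.90), and at such low control counts the likeness depends on the prior count. The match was sought among 12432 genes and describes these 6 libraries only.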

How the data were processed

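RNA of BMDM cultures was sequenced by the authors as stranded TruSeq libraries from RNA with an integrity number above 9. The deposited values are whole-number read counts per Ensembl gene, 1 file per library, with no normalization; the submitters' processing notes name STAR 2.7.0, featureCounts and GRCm38.p5. Neither annotation release nor strand setting is given in the sources used here, and overlapping genes were not corrected for. Symbols, positions and exon lengths came from GENCODE M21 (same chromosomes, GRCm38.p6) and matched 25664 of 25700 identifiers.

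In R 4.3.3, edgeR 4.0.16 filtered genes (filterByExpr, minimum count 10), applied TMM and compared heme with control libraries (glmQLFit, glmQLFTest), condition being the only term. Intervals of folds came from that test's standard error and degrees of freedom. Alternatives were other scalings, DESeq2 1.42.0, limma-voom (limma 3.58.1), other filters, a replicate block, a minimum change of 0.5 (log2) in the test and leaving out each library. On simulated counts for this comparison (12433 genes), 44 of 50 genes changed by 1 (log2) were recovered, 50 of 50 changed by 2, and 17 of 12130 genes that had not been changed were called. The replicates of a group differed by more than sampling noise (chi-square per degree of freedom 6.23 to 50.2). The 9 genes and the lists were chosen with earlier results of these data known. Named partner genes are, in each list, the called genes that changed most, at most 4, and at most 2 of the opposite direction; 1 of them, and the ratio that uses it, is not reported here. Permutation tests of single genes used log2(CPM + 0.1), and those of ratios used the log2 ratio with nothing added.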

Additional observations from a re-analysis of the deposited data

How the results depend on the processing

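The calls of the 9 genes (6 higher, 0 lower) were the same under each alternative except without control replicate 1, where Thbd was a seventh. Leaving out 1 library moved the log2 fold change of Plau between -0.56 and 0.23, of Thbd between 0.065 and 0.38 and of Thbs1 between -0.0541 and 0.45. When scaled by library size alone, Thbd was at -0.0346 and Thbs1 at -0.0135; 2580 of all tested genes were then higher and 5814 lower (3938 and 3831 with TMM), and 8 partner genes were lower. Tested against a log2 fold change of 0.5, 1816 genes were higher and 1517 lower, and of the partner genes 16 and 1. Leaving out 1 library gave 3 to 7 lower partner genes (3 without control replicate 2 or heme replicate 1), against 5 with all libraries. The cause of these shifts was not tested. The 5 ratios given kept their direction in each setting run. Same-numbered control and heme libraries did not deviate together from their group means (r = -0.0998, -0.142 and -0.0683 across genes), and the numbers were not taken to pair the mice. With the replicate number as a block, 3671 genes were higher and 3493 lower, the calls of the 9 genes did not change (Procr 5.10, Plau -0.20), and F9 and Vkorc1 did not pass. With 3 to 178 counts, Serpinb2 is limited by depth.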
